A study of Mus musculus with 4 samples.

Results

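Unfolded protein and integrated stress genes were followed through H3K27ac, the histone acetylation found at promoters and enhancers in use, in cultured female mouse neural stem cells with and without Smchd1. The 10 genes were Ern1, Eif2ak3, Atf6, Xbp1, Atf4, Ddit3, Hspa5, Asns, Trib3 and Chac1, of 34324 protein-coding and lncRNA genes on chromosomes 1 to 19 and X. A peak was assigned to a gene when it overlapped the RefSeq gene body or the 5 kb on either side of it. The set was put together with results of these data in view. It was partly chosen by measured values, since the Smchd1-deleted list has a strong peak (fold enrichment 7.56) at the start of Ern1 that the control list lacks. Values between the 2 lists are therefore given as descriptions, and that peak is no independent finding.

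The cells came from E14.5 embryos with 1 deleted and 1 floxed Smchd1 allele, a maternal X of strain 129 bearing the Xist deltaA allele and a paternal X of Castaneus origin. Each established line was divided. Deleted cells received a retrovirus with Cre recombinase and puromycin resistance (MSCV-Cre-puro) and had puromycin from 24 h, while control cells were left untransduced. Harvest was at day 7 after transduction. Loss of Smchd1, transduction and drug selection thus cannot be told apart. There was 1 ChIP library and 1 input library per condition, so no difference has a replicate check and no p-value is given. Groups follow the sample titles. Other fields go against them: the antibody field of both ChIP samples names H3K27me3, the title of the control ChIP gives fl/fl where its genotype field gives del/fl, the control input has del/del as its genotype, and the strain field gives C57BL/6.

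The unfolded protein response is set off when unfolded proteins gather in the endoplasmic reticulum (ER). It is read by membrane sensors: IRE1 (Ern1) splices the mRNA of the transcription factor XBP1, PERK (Eif2ak3) phosphorylates the translation factor eIF2, and ATF6 is cut in the Golgi to free a transcription factor. Phosphorylated eIF2 slows most translation but favours that of Atf4, and because other kinases respond to amino acid shortage, haem shortage or viral RNA, this branch is called the integrated stress response. Neural progenitors secrete and display many proteins made in the ER.

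To show what lies at these starts, the 250 bases upstream of the annotated start are given for 5 genes: Ern1, Trib3 and Chac1, whose start had a peak in 1 list only, and Hspa5 and Asns, whose upstream sequence held a searched motif. Sequences are from RefSeq on GRCm38.p6 (the mm10 sequence), written 5′ to 3′ in the direction of transcription, and capitals mark motif matches.
Ern1, chr11:106487797-106488046, minus strand: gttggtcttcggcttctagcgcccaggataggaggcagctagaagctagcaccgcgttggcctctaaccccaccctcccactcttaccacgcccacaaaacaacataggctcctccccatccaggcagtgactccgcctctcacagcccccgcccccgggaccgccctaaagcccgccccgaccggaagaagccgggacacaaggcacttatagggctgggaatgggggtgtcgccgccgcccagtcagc
Hspa5, chr2:34771840-34772089, plus strand: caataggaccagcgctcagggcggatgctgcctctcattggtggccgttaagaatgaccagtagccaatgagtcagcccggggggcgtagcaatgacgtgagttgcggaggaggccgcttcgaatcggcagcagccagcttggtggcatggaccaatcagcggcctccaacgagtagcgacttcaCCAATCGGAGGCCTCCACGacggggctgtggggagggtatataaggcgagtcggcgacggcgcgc
Asns, chr6:7693210-7693459, minus strand: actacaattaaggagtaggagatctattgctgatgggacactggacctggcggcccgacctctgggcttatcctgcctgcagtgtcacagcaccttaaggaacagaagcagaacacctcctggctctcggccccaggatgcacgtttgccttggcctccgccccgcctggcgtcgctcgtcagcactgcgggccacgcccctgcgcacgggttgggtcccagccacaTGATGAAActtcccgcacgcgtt
Trib3, chr2:152344061-152344310, minus strand: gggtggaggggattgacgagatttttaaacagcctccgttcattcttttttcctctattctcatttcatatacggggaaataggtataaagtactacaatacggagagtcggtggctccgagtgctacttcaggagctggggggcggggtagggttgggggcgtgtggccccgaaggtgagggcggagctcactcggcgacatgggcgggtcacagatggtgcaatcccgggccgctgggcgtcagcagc
Chac1, chr2:119350992-119351241, plus strand: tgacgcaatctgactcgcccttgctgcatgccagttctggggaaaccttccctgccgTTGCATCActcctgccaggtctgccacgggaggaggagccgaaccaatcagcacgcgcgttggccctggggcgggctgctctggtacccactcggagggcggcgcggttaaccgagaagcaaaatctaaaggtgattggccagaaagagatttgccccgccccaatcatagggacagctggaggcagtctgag
The table of promoters had an entry for 9 of the 10 genes (Atf6 had none). Hspa5 held the ER stress response element (CCAAT, 9 free bases, then CCACG) at positions −65 to −47 from its start. That element was found in 0.113% of the 32851 promoter entries of the same length, on either strand, as were all motifs here. The related second element (ATTGG, 1 free base, then CCACG; 0.0304% of entries), the UPR element TGACGTGG (0.563%), the cAMP response element TGACGTCA (1.55%) and the C/EBP-ATF element TGATGNAAT (0.816%) matched in 0 of the 9 windows. A shorter form of the last, TGATGNAA, was searched after the sequences had been seen and contains every match of the longer form. It matched at Asns (−23 to −16) and, on the opposite strand, at Chac1 (−193 to −186), against 3.45% of all entries. A match of letters is not evidence that a factor binds. The 9 windows had a GC content of 50.4% (Xbp1) to 64.8% (Ern1 and Ddit3) and 8 to 22 CpG sites, with medians of 52.4% and 6 over all entries.

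The authors' lists held 91557 peaks for deleted and 63613 for control cells on the chromosomes compared, from 54194233 and 42277672 filtered ChIP tags, a depth ratio of 1.28. A peak was called list-only when no base of it overlapped a peak of the other list. This held for 50.6% of deleted and 24.3% of control peaks, and among peaks with a fold enrichment of at least 5 for 4.17% and 1.28%. Fold enrichment is the authors' ratio of summit pileup to local background within 1 library pair, not scaled between libraries. Of 8 neural stem cell markers all had a peak over the gene or its flanks in both lists, and 7 had such peaks within 1 kb of a gene end in both (Pax6 did not). Markers of other cells rarely had gene-end peaks in both: 1 of 6 neuron, 1 of 5 microglia, 1 of 5 fibroblast, 0 of 4 endothelial and 0 of 4 pluripotency genes. Over the gene or its flanks the contrast was smaller, with a peak in both lists at 3, 4, 1, 2 and 1 of these genes. Among coding genes 49.4% had gene-end peaks in both lists, and 61.4% had peaks over the gene or its flanks in both. Over bodies and flanks, however, the 6 mature neuron markers had 18 peaks in deleted and 3 in control cells. Most lay at Camk2a (6 and 1), Syt1 (5 and 1) and Rbfox3 (4 and 1), with 2 and 0 at Gad1, 1 and 0 at Slc17a7 and 0 and 0 at Snap25. The part of gene length in these counts was not tested. More deleted peaks lay at 5 of 6 (40.7% of coding genes), and 15 of the 18 and 0 of the 3 overlapped nothing in the other list. Fibroblast markers had 12 deleted and 6 control peaks, microglia markers 7 and 5, and pluripotency markers 2 and 1. Endothelial markers had 20 and 20, of which Pecam1 alone had 17 and 18. Whether the marker counts move with the values of the stress genes was not tested.

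Most of the 10 genes carried H3K27ac in both cultures. Over them lay 41 deleted and 33 control peaks, covering 20.9 kb and 13.9 kb. The ratio of deleted to control peaks was 1.24, against 1.38 over 21627 protein-coding genes. Of the 10 genes 9 had a peak in both lists, against 61.4% of coding genes. Chac1 was the exception, with 1 deleted and 0 control peaks, a pattern shared by 5.71% of coding genes, and the reverse pattern was seen at 0 of 10 (0.916%). Trib3 counts among the 9 only through the edge of a deleted peak at the start of Rbck1, with its summit outside the window. With summits required inside the window, 8 genes had a peak in both lists. More deleted than control peaks were counted at 5 of 10 genes (Ern1, Atf6, Xbp1, Eif2ak3 and Chac1), where 40.7% of coding genes had more, and 0 had more control peaks (9.55% of coding genes). At least 1 deleted-only peak lay over 7 of 10 genes (50% of coding genes, 10804 in number) and at least 1 control-only peak over 4 of 10 (28.4%). In total peaks the lead of the deleted list was not kept at equal list length. With both lists reduced to 63613 peaks by −log10 q, the 10 genes had 29 deleted and 33 control peaks, 8 and 12 of them list-only, where 38.3% and 32.6% of all peaks were. Atf6 alone had 7 of these deleted and 12 of these control peaks, 3 and 8 of them list-only. More deleted peaks were then counted at 4 genes and more control peaks at 3 (Atf4, Atf6 and Ddit3). A window of 1 kb on both sides also gave 3 genes with more control peaks (Atf4, Ddit3 and Trib3).

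Read over peaks, 18 of the 41 deleted peaks were list-only, or 43.9% (exact Clopper-Pearson 95% interval 28.5 to 60.3, counting error only), and 10 of the 33 control peaks, or 30.3% (15.6 to 48.7). Over the whole lists the values were 50.6% and 24.3%. The intervals are no test against these, since the Ern1 peak helped to choose the set and many peaks share 1 gene. Of the list-only peaks, Atf6 alone supplied 8 and 7, and the other 9 genes together 10 of 28 and 3 of 21. List-only peaks were weak and narrow: in the deleted list their median fold enrichment was 3.10 and their median width 246 bases, against 5.21 and 680 for peaks overlapping the other list. In the control list these values were 3.25 and 233 against 4.24 and 403. Of the 18 deleted-only peaks, 2 reached a fold enrichment of 5, at Ern1 and Xbp1, and of the 10 control-only peaks 0 did. Over the whole lists 799 of 46366 deleted-only and 235 of 15444 control-only peaks did. The Ern1 peak helped to choose the set, so nothing is read from this count. Divided by the depth ratio, the pileup of 3 of the 18 would lie under 12, the lowest pileup in the control list.

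**Figure D1:**
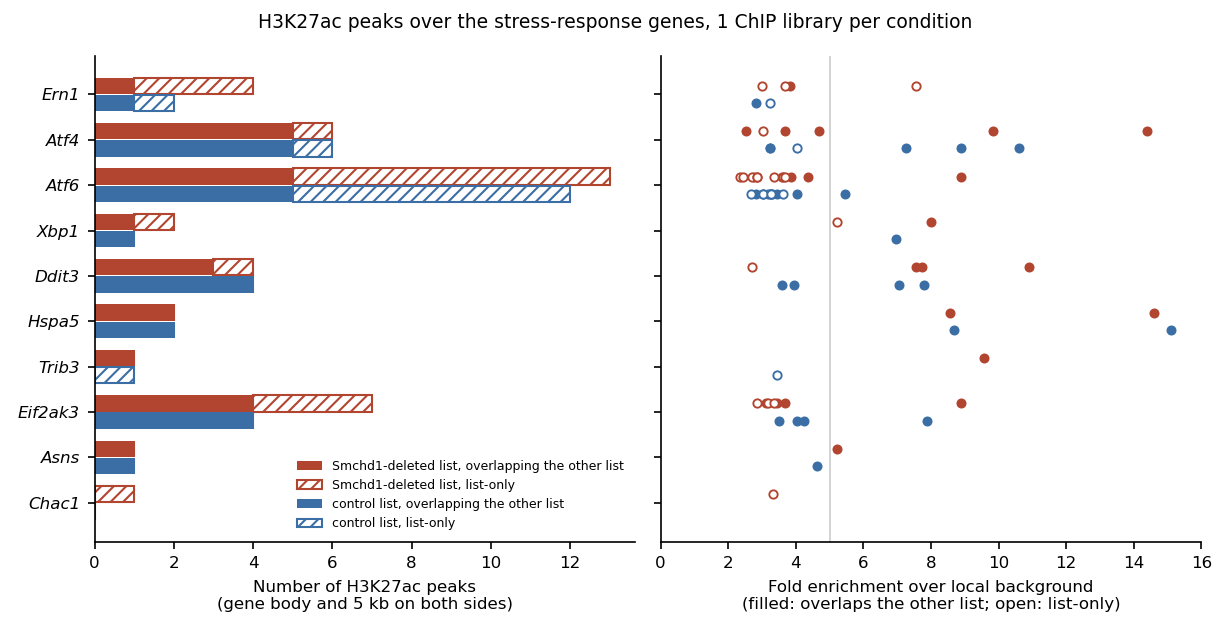
Left, the number of H3K27ac peaks over each gene body and its 5 kb flanks in the deleted (red) and control (blue) list, hatched where a peak overlaps none of the other list. Right, the fold enrichment of each of these peaks (open where list-only, grey line at 5). Of the 18 open deleted points only those of Ern1 at 7.56 and Xbp1 at 5.21 lie beyond 5.

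The sensors came first. Ern1 (chromosome 11 from 106397620 to 106487796, minus strand) encodes IRE1, a kinase and endoribonuclease of the ER membrane. The deleted list held 4 peaks over it and the control list 2. At its start the deleted list had a peak of 321 bases from 106487462 to 106487782, whose summit lay 125 bases inside the gene, with a pileup of 44, a fold enrichment of 7.56 and a −log10 q of 23.7. A weaker deleted peak (fold enrichment 3.00, width 263) had its summit 649 bases inside. Neither overlapped a control peak, and the nearest control peak to the stronger lay 12.5 kb away, outside the gene. At control depth its pileup would be 34.3, where the lowest pileup of any control peak was 12 and the median 20. The sequence printed for Ern1, just upstream of the start, held no base of a peak in either list.

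The Ern1 start peak stood high in its list, with 91.9% of deleted peaks below it in fold enrichment. Of 7454 deleted peaks at or above its value, 20 were deleted-only, or 0.268% (0.164 to 0.414), and it ranked 18 of 46366 among deleted-only peaks. These 20 lay a median of 0.184 kb from the nearest control peak, and 3 of them, Ern1's included, lay over 10 kb away. Among protein-coding genes the deleted-only gene-end peaks nearest to it in fold enrichment were those of Them4 (7.56), Zbtb17 and Gm42337 (7.56, at 1 shared peak), Camkv (7.39) and Lrp6 (7.39). In all of these a control peak lay 0.123 to 0.181 kb away. So at equal height most deleted-only peaks stood next to a control peak, and that of Ern1 did not. This peak was among the reasons for choosing the genes, and the values describe it without a test.

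Inside Ern1, 67.9 kb from its start, both lists had a peak (fold enrichment 3.83 in deleted and 2.83 in control cells). A deleted-only peak (3.67) lay 0.46 kb from the control one. Below the 3′ end, 1.3 kb beyond it, the control list had a weak peak of its own (3.23). Of the 4 deleted peaks of Ern1, the highest and the lowest in fold enrichment (7.56 and 3.00) were thus both at its start, where the control list had no peak.

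Eif2ak3 (chromosome 6 from 70844484 to 70905241) encodes PERK, the ER-resident eIF2 kinase. Its start was marked in both lists, by a peak with its summit 495 bases inside the gene in the deleted list (fold enrichment 8.90, width 1001) and 453 bases inside in the control list (7.87, width 682). Upstream, both lists had a weaker peak (3.12 and 3.50). In the body, summits 27.4 and 27.3 kb from the start (3.43 and 4.24) and 33.5 and 33.6 kb from it (3.69 and 4.04) were common to both. Deleted-only peaks numbered 3, at fold enrichments of 2.85, 3.19 and 3.36, and control-only peaks 0. All 4 control peaks of this gene therefore had a partner in the deleted list.

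Atf6 (chromosome 1 from 170704457 to 170868585) encodes the membrane-bound factor of the response and is the longest of the set at 164 kb. It held 13 deleted and 12 control peaks. Its strongest lay at the upper-coordinate end, which also holds the start of the lncRNA Gm9929, with a fold enrichment of 8.90 (width 847, pileup 52) in the deleted and 5.45 (width 488, pileup 26) in the control list. Both lists shared 4 further peaks, with summits 15.1 to 104 kb from the lower-coordinate end and fold enrichments of 2.77 to 4.37 and 2.82 to 4.04. The 8 deleted-only and 7 control-only peaks reached at most 3.69 and 3.63, above 51.9% of deleted and 30.1% of control peaks. Per 10 kb of window Atf6 had 0.747 deleted and 0.689 control peaks, above 60.3% and 65.8% of coding genes. The medians over coding genes were 0.462 and 0.316. The part of gene length in the number of Atf6 peaks was not tested.

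**Figure D2:**
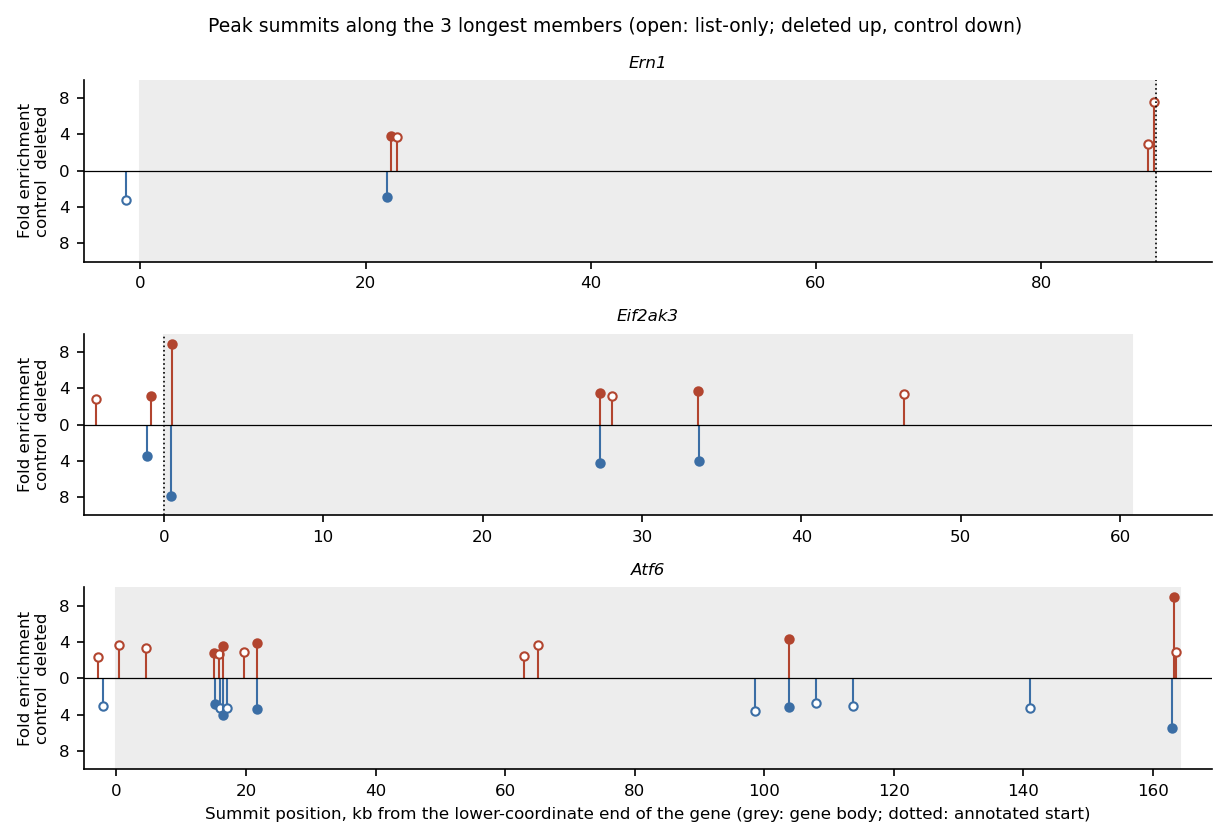
Peak summits along Ern1, Eif2ak3 and Atf6, in kb from the lower-coordinate end of the gene, with the fold enrichment drawn upward for the deleted and downward for the control list (open where list-only, grey for the gene body, dotted line for the annotated start of Ern1 and Eif2ak3). The peak of 7.56 at the start of Ern1 has no control partner, while the strongest peaks of Eif2ak3 (8.90 and 7.87) and Atf6 (8.90 and 5.45) do.

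The transcription factors followed. Xbp1 (chromosome 11 from 5520641 to 5525993) encodes the factor whose mRNA IRE1 splices. The deleted list had 2 peaks at its start. The broader (fold enrichment 8.0, width 1171) overlapped the single control peak (6.97, width 789). The narrower, of 182 bases across the start itself (5.21, pileup 30), was deleted-only, but a control peak began 0.224 kb from it. In this it differs from the Ern1 peak.

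Atf4 (chromosome 15 from 80255184 to 80257545), the factor translated when eIF2 is phosphorylated, was the most densely marked of the set. In 12.4 kb it had 6 peaks in each list, or 4.85 per 10 kb, above 96.5% of coding genes in deleted and 98.2% in control cells. A single deleted peak of 1649 bases over the gene (fold enrichment 14.4) stood opposite 2 control peaks (10.6 and 8.88, widths 695 and 1138). Upstream of the start lay a further strong peak in both (9.83 and 7.26). The remaining peaks had fold enrichments of at most 4.70, and 1 in each list was list-only (3.02 and 4.04). The window also reaches the genes Mief1 and Rps19bp1.

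Ddit3 (chromosome 10 from 127290793 to 127296291) encodes CHOP, a factor linked to cell death under lasting stress. Both lists had 4 peaks. Just inside the start, 1 deleted peak (fold enrichment 7.56, width 1008, pileup 44) overlapped 2 control peaks (3.96 and 3.6, widths 403 and 247). Upstream, peaks of 7.72 and 7.80 and, farther, of 10.9 and 7.06 lay within 1 kb of annotated starts of Mbd6, a neighbouring gene that overlaps the start of Ddit3. They cannot be assigned to Ddit3 alone. The deleted-only peak of this gene was weak (2.69).

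Among targets, Hspa5 (chromosome 2 from 34772090 to 34776529) encodes BiP, the main chaperone of the ER lumen. It had the most enriched peak of the set in each list. Upstream of the start the fold enrichment was 14.6 in deleted and 15.1 in control cells (widths 741 and 644), above 99.7% and 99.8% of peaks of each list. Inside the gene it was 8.56 and 8.68 (widths 789 and 653). No peak was list-only. Between these peaks lay a peak-free stretch of 360 bases in deleted and 365 in control cells, which holds the start and all 250 printed bases with the ER stress response element. Ddit3 had a similar stretch around its start, of 479 and 478 bases.

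Asns (chromosome 6 from 7675165 to 7693209) encodes asparagine synthetase, a target of ATF4. Each list had 1 peak, directly inside the start, with a fold enrichment of 5.21 (width 650, pileup 30) in the deleted and 4.64 (width 203, pileup 22) in the control list. Their summits lay 9 bases apart. Both began within 13 bases of the start, so the printed sequence with its TGATGNAA match was outside them.

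Trib3 (chromosome 2 from 152337425 to 152344060, minus strand) encodes a pseudokinase induced by ATF4 and CHOP. At its start the control list had a weak peak of 175 bases (fold enrichment 3.43, pileup 16, above 20.9% of control peaks) and the deleted list had none within 5.16 kb. The deleted list's only peak in the window was that of Rbck1 (9.57), 4.77 kb beyond the 3′ end. Its control partner (9.89) ended 5.05 kb beyond and so fell outside. These are the peaks just inside and just outside the 5 kb limit. Trib3 therefore counts as having a peak in both lists although the peaks are at different genes.

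Chac1 (chromosome 2 from 119351242 to 119354326) encodes an enzyme that breaks down glutathione and is a target of the ATF4 branch. The deleted list had 1 peak, with its summit at −305 from the start (fold enrichment 3.33, width 210, pileup 19, above 35.2% of deleted peaks). It covered the first 30 of the printed bases, ahead of the TGATGNAA match. The nearest control peak lay 13.0 kb away. At control depth its pileup would be 14.8, where the lowest pileup of the control list was 12. The part of depth in the absence of a control peak was not tested.

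Within 1 kb of the annotated start, both lists had a peak at 6 of the 9 genes with an entry (49.9% of 17273 coding genes), the deleted list alone at 2, Ern1 and Chac1 (5.14%), and the control list alone at 1, Trib3 (0.839%). By either gene end, with Atf6 included, these numbers were 7, 2 and 1 of 10, against 49.4%, 6.27% and 1.16% of coding genes. Since Ern1 helped to choose the set, nothing is read from the count of deleted-only starts. The 3 starts with a peak in 1 list differ in strength, with 7.56 at Ern1 against 3.33 at Chac1 and 3.43 at Trib3.

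**Figure D3:**
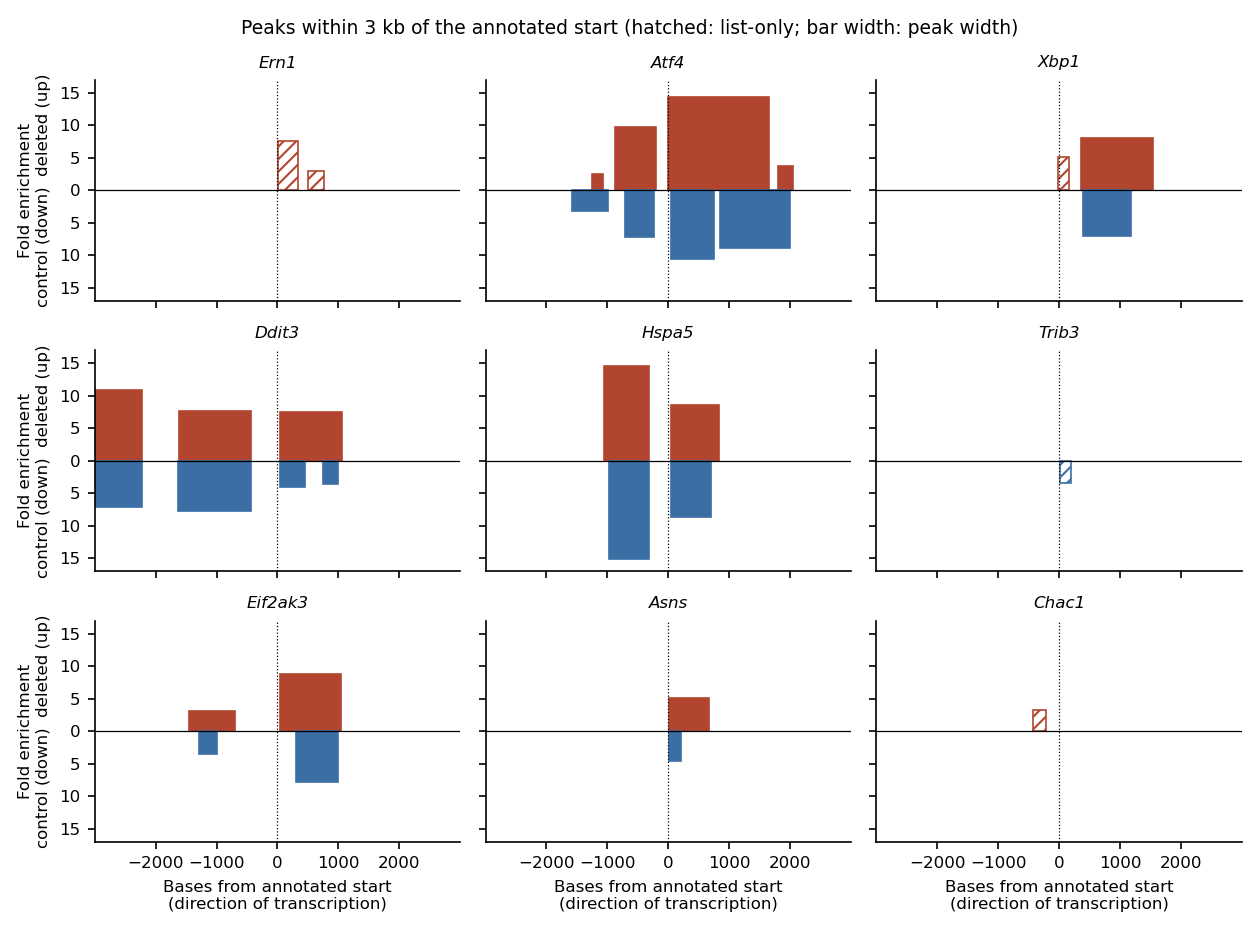
Peaks within 3 kb of the annotated start of 9 genes, in bases from the start in the direction of transcription. Bar width is the peak's width and bar height its fold enrichment, upward for the deleted and downward for the control list, hatched where list-only. Hspa5 shows like peaks in both lists (14.6 and 15.1 upstream), Ern1 and Chac1 have deleted bars only and Trib3 a control bar only.

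Where a peak of 1 list overlapped exactly 1 of the other, pileups were compared after division by each library's filtered tags. The 10 genes had 20 such pairs, the Rbck1 pair included, of 35969 in all. The log2 ratio of deleted to control pileup per tag had a median of 0.02 over the 20 pairs and −0.08 over all pairs, and ranged from −0.46 to 0.64. All pairs ran from −0.60 to 0.45 between their 5% and 95% points, and 17 of the 20 fell inside. The other 3 lay above: the upper-coordinate end of Atf6 (0.64), the peak near Mbd6 upstream of Ddit3 (0.55) and a peak beyond the 3′ end of Atf4 (0.49). The deleted peaks just inside the start of Ddit3 and over Atf4 each overlapped 2 control peaks, so they are not among the pairs. At control depth their pileups would be 34.3 at Ddit3, against 21 and 19 in the control peaks, and 66.3 at Atf4, against 52 and 43. At Hspa5 the ratios were −0.14 and −0.11, at Xbp1 0.11, at Asns 0.09 and at the start of Eif2ak3 0.09. Fold enrichment was higher in the deleted list in 10 of the 20 pairs (51.1% of all pairs). The deleted peak was wider in 18 of 20, against 67.6% of all pairs. ChIP depth was also higher in the deleted library, and its part in peak width was not tested.

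**Figure D4:**
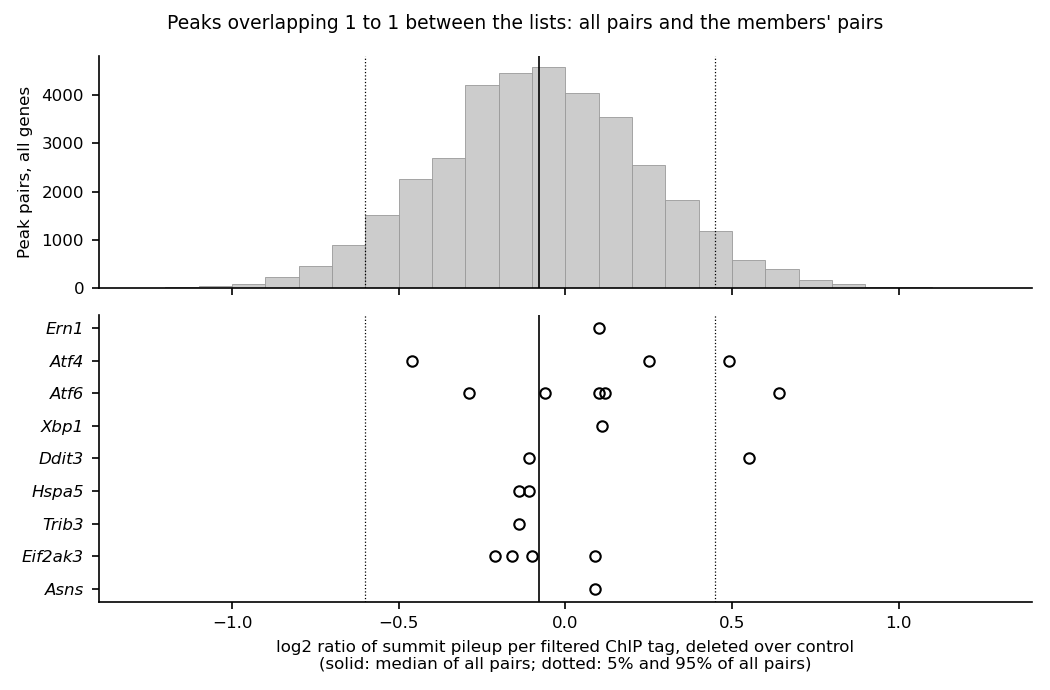
Top, the log2 ratio of summit pileup per filtered ChIP tag, deleted over control, for all 35969 pairs of peaks that overlap 1 to 1. Bottom, the same for the 20 pairs over the stress genes, 1 circle per pair. Solid and dotted lines mark the median (−0.08) and the 5% and 95% points (−0.60 and 0.45) of all pairs, and 3 circles, at Atf6, Ddit3 and Atf4, lie beyond the upper one.

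The wider pathways gave the setting. Of 58 other genes in 7 lists, 49 had a peak within 1 kb of a gene end in both lists, 3 in that of deleted cells alone, 1 in that of control cells alone and 5 in neither. Among all coding genes the first 3 of these made up 49.4%, 6.27% and 1.16%. Over bodies and flanks, 31 had more deleted and 10 more control peaks, against 40.7% and 9.55% of coding genes. The median difference was 1 peak, where that over all coding genes was 0. In total the 58 genes had 284 deleted and 240 control peaks, where all coding genes had 85921 and 62357, a ratio of 1.38. The median difference of the 10 genes was 0.5. These lists came from general knowledge of the pathway but with earlier results of these data known.

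All 14 ER chaperones and folding enzymes had gene-end peaks in both lists, led by Pdia3 (fold enrichment 12.6 in deleted and 9.68 in control cells), a disulfide isomerase, and Canx (11.2 and 7.67), the lectin chaperone calnexin. Of 7 genes of ER-associated degradation 5 did, led by the ubiquitin ligase Syvn1 (13.9 and 11.7) and Herpud1 (12.4 and 11.3). The other 2 had such a peak in neither list. All 6 genes around eIF2 phosphorylation did, led by the phosphatase subunit Ppp1r15b (18.5 and 15.9) and Eif2s1 (10.9 and 11.3), which encodes the phosphorylated subunit. Amino acid and other ATF4 target genes had them at 10 of 11, led by the mTORC1 inhibitor Ddit4 (15.3 and 14.9) and the serine synthesis enzyme Psat1 (10.6 and 8.47). In the IRE1 and ATF6 processing list 4 of 6 did, led by the RNA ligase Rtcb (8.90 and 11.3), which joins spliced Xbp1, and the protease gene Mbtps2 (6.88 and 7.87).

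The other stress transcription factors held most of the gene-end peaks found in 1 list. Both lists had them at 5 of 8 genes, led by Atf5 (11.2 and 10.1) and Creb3 (7.75 and 11.9). Cebpb (4.37) and Nupr1 (3.53) had one in the deleted list only and Atf3 (3.43) in the control list only. All 3 were under a fold enrichment of 5. The median over all deleted peaks was 3.53, with Cebpb above it and Nupr1 level with it. Atf3 lay below the median of all control peaks, 4.04. Of 6 aminoacyl-tRNA synthetases 5 had them in both, with Gars at 13.6 and 14.3. Eprs had one in the deleted list only (10.2), but it had 0 deleted-only peaks, so that peak overlapped a control peak that ended beyond 1 kb.

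**Figure D5:**
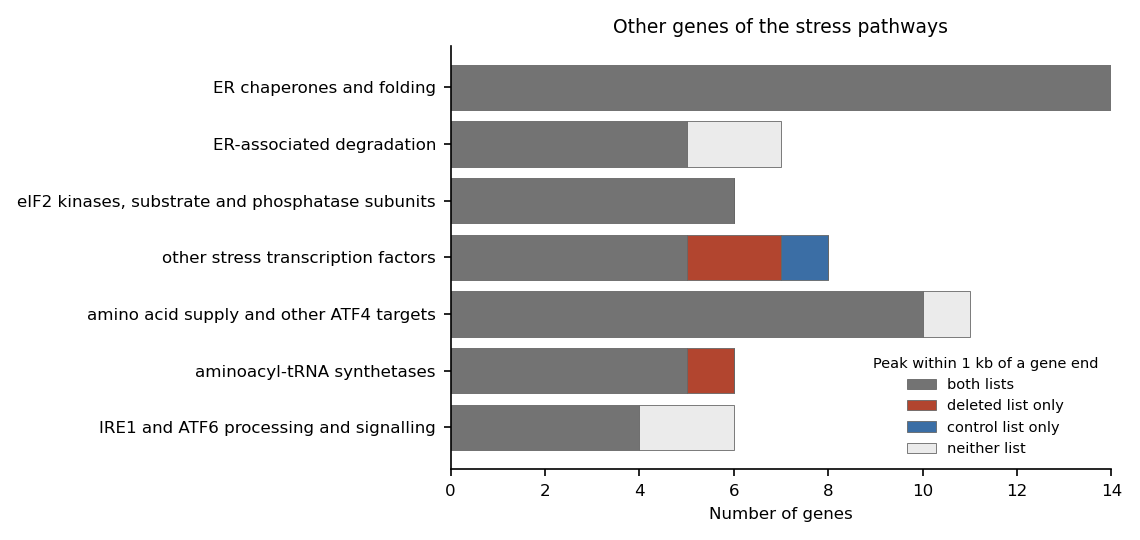
Number of genes in each of 7 lists of other stress-pathway genes by where a peak lay within 1 kb of a gene end: in both, in 1 list alone, or in neither. Both lists had a peak at 49 of the 58 genes, and 3 of the 4 genes with a peak in 1 list only are transcription factors.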

How the data were processed

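H3K27ac ChIP and input DNA were sequenced from 1 Smchd1-deleted and 1 control culture. The submitters' processing notes list bcl2fastq, Bowtie 0.12.9 and the mm10 build. Per the file headers, MACS2 2.1.0.20140616 made narrow calls for each ChIP against the matching input (q-value threshold 0.05, larger library down-sampled, a position counted with at most 1 tag). For each peak the lists deposited by the authors hold its position and width, the pileup signal at the summit, −log10 p and −log10 q, and fold enrichment, a ratio to local background. Per the file headers 54194233 and 42277672 filtered ChIP tags remained, and 77101643 and 80601280 input tags.

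Peaks on chromosomes 1 to 19 and X were joined to RefSeq genes (GRCm38.p6), which have the chromosomes of mm10, with Python 3.11.15, pandas 2.3.3 and scipy 1.17.1. Overlap and counting code was tested on simulated lists. All 10 genes, 58 pathway genes and 32 markers matched. Genes named from the pathway lists are the 2 with the highest gene-end fold enrichment in the deleted list and each with a gene-end peak in 1 list only. Members and lists were chosen with earlier results of these data known. Alternatives were the window, stricter thresholds, lists of equal length, summit position and the overlap that counts as shared. Input tags were used only through the authors' calls.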

Additional observations from a re-analysis of the deposited data

How the results depend on the processing

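No paired analysis was possible because each condition has 1 ChIP library. Of 88 counts over the 10 genes (8 counts under 11 alternatives), 59 stayed within 1.5 times the reported value, and the number of genes with a peak in both lists did so under all 11 (6 to 9). The Ern1 start peak lies too far from any control peak for these alternatives to bear on it, and its weaker neighbour was lost under the 4 that shorten the lists by fold enrichment or q. At a fold enrichment of at least 5 there were 14 deleted and 10 control peaks, with 4 deleted-only and 0 control-only peaks at 4 and 0 genes (26.9% and 19% of all such peaks were list-only). With overlap then asked of all peaks of the other list there were 14 and 10 peaks with 2 and 0 list-only, at 2 and 0 genes. This alternative, the window around the start and the rule on other genes' starts were chosen after seeing the data. At −log10 q of at least 5 there were 25 and 16 peaks, 9 and 1 list-only (41.3% and 19.2% of all), at 4 and 1 genes. With lists of equal length the total was higher in the control list, at 29 deleted and 33 control peaks, 8 and 12 list-only. Atf6 alone had 7 and 12 of these peaks, 3 and 8 list-only. By genes, 4 still had more deleted and 3 more control peaks. With gene bodies alone 4 genes had a deleted-only and 2 a control-only peak, and with 10 kb on both sides 8 genes had more deleted peaks. Within 1 kb of the annotated start there were 14 peaks in each list, 4 deleted-only and 1 control-only, at 3 and 1 genes, and 3 genes had more deleted and 3 more control peaks. Leaving out peaks at another gene's start kept all 8 counts within 1.5 times. ChIP depth differed by 1.28 times between the libraries, and its part in these counts was not tested.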

Other observations

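Among the other stress-pathway genes, several differed in peak number between the lists (the genes here were picked with their values known). Mbtps1, whose protease cuts ATF6, had 13 deleted and 7 control peaks over its body and flanks, Traf2, an adaptor of IRE1 signalling, had 7 and 3, and Dnajc3, a BiP co-chaperone, had 7 and 3. In the other direction, the mitochondrial folate enzyme Mthfd2 had 2 deleted and 5 control peaks and Shmt2, the serine-using enzyme of that pathway, 3 and 5. For both, 2 control peaks and 0 deleted ones had no overlap in the other list. Slc7a11, the cystine transporter, had 8 and 6 peaks but none within 1 kb of a gene end in either list. Ern2, the IRE1 paralogue of gut epithelium, and the kinase gene Map3k5 had 0 peaks in both lists.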
